A study of Homo sapiens with 14 samples.

Results

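RNA sequencing compared A549 cells that received palbociclib together with indisulam (P+I) with A549 cells that received indisulam without palbociclib (IN). This gives what palbociclib adds in cells that also receive indisulam. The comparison took in the 4 libraries labelled A549 P+I and A549 IN, 2 per group, of 14 libraries in the series. A549 is an established human lung adenocarcinoma cell line that grows as an epithelial sheet. Both groups received 0.5 µM indisulam for 10 days, and the P+I cells also received 2 µM palbociclib over the same 10 days. For values side by side, palbociclib given for 10 days at 2 µM without indisulam (PD) was compared with untreated A549 cells (UT, whose collection time is not given), again with 2 libraries each. Another 2 A549 libraries, treated with 0.5 µM PF-06873600 for 7 days (PF), entered the model only for the estimate of the spread. The study asked whether indisulam turns the weak response of cancer cells to palbociclib into senescence. The duplicates are technical according to the design text, so every p-value measures only the spread between these libraries, and all results come from a single line, a single dose of each drug and a single time point.

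Palbociclib inhibits the kinases CDK4 and CDK6, which phosphorylate the retinoblastoma protein. When that protein stays unphosphorylated, E2F factors do not drive the genes of DNA replication, and a related repressor, the DREAM complex, holds the genes of mitosis down. Indisulam is an aryl sulfonamide that glues the splicing factor RBM39 to the ubiquitin ligase receptor DCAF15, and RBM39 protein is then degraded. Senescence is a lasting arrest in which cells stop dividing, enlarge, lose lamin B1, gain lysosomal mass and secrete cytokines and matrix proteins. In bulk RNA a lower level of a cell-cycle transcript cannot separate fewer cycling cells from less of that RNA per cell.

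Between 13475593 and 16388606 reads were counted on genes in the 8 libraries. Levels are given as CPM, the reads of a gene scaled to a common library total, and 3 reads, the smallest level taken as detected, correspond to 0.193 to 0.213 CPM in the P+I and IN libraries. Duplicates differed by more than counting noise. The chi-square statistic divided by its degrees of freedom was 2.22 in P+I, 3.08 in IN, 5.04 in PD and 9.57 in UT, where 1 would be counting noise alone. Reads of mitochondrial genes made up 4.49% and 5.26% of the P+I libraries and 6.05% and 5.36% of the IN libraries. All 8 epithelial or A549 marker genes checked were detected in the 4 libraries. Of these, 3 were higher and 4 lower in P+I than in IN, against 22.0% and 23.9% of all genes tested. EPCAM went from 24.4 and 26.4 CPM in IN to 15.1 and 13.9 CPM in P+I, and CDH1 from 172 and 172 CPM to 130 and 126 CPM. AKR1B10 fell from 3624 and 3680 CPM to 1554 and 1555 CPM, and ALDH3A1 from 4490 and 4348 CPM to 2215 and 2148 CPM. KRT8 and KRT18, keratins of simple epithelia, lay at 3769 CPM or more in all 4 libraries, and CDKN2A, a locus that A549 is known to have lost, had no read in any of them, which allows at most 3 reads each. The leukocyte genes PTPRC and CD3E had at most 2 reads in a library, LYZ had 29 to 55 reads, and CD14 fell by 0.78 from 11.1 and 12.03 CPM in IN. The endothelial genes PECAM1, VWF, CDH5 and KDR had at most 15 reads, and PECAM1 fell from 9 and 11 reads in IN to 1 read in each P+I library.

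Adding palbociclib to indisulam changed a large share of the transcriptome. Of 15780 genes tested, 3479 were higher in P+I than in IN (22.0%) and 3773 were lower (23.9%), so 46.0% passed an adjusted p of 0.05 (edgeR quasi-likelihood test). A change of at least 2-fold that also passed was seen in 1038 genes upwards (6.58%) and 674 genes downwards (4.27%). The median log2 fold change over all genes was -0.02, and the median size of a change, without its sign, was 0.32 on the log2 scale. The libraries of the 2 groups did not overlap at 74.9% of all genes tested, so a lack of overlap by itself says little here. Exons of several genes named here overlap a gene on the other strand (CCND1 with LTO1, CDK2 with PMEL, CDK4 with TSPAN31, CDKN1A with DINOL, FOXM1 with ITFG2, RAD54L with LRRC41, TAGLN with PCSK7, ETV4 with DHX8, NPC1 with RMC1, CCNE2 with INTS8, IGFBP7 with POLR2B), and reads of such a pair may not be told apart. The plot of change against level uses the mean level over both groups, so it does not show the level in IN alone.

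**Figure D1:**
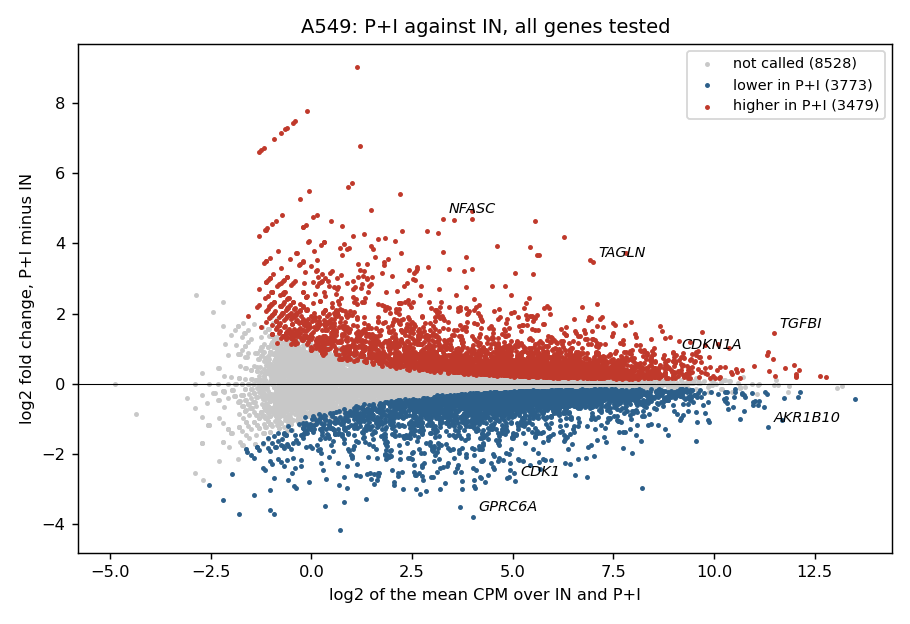
Log2 fold change of P+I minus IN (vertical axis) against the log2 of the mean CPM over both groups (horizontal axis), 1 point per gene tested, red for the 3479 genes higher in P+I, blue for the 3773 lower and grey for the rest. TAGLN and TGFBI stand out among abundant genes that rose, CDK1, GPRC6A and AKR1B10 among those that fell.

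Genes of the cell cycle fell together. All 76 tested genes of the mitosis list were lower in P+I, 71 of them by at least 2-fold, with a median log2 fold change of -2.09. Of 44 genes of DNA replication 41 fell, with a median of -1.10, and the other 3 (POLA2, RPA2 and PRIM2) did not pass at -0.52, -0.22 and -0.17. Among 25 genes of homologous recombination and Fanconi repair 22 fell, with a median of -1.30. These counts stand against 23.9% of all genes called lower and a median of -0.02, and the background for every list count of P+I against IN is 22.0% of all genes higher and 23.9% lower.

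CDK1, the kinase that drives entry into mitosis, was measured at 10.3 and 6.82 CPM in P+I and at 59.4 and 56.6 CPM in IN. It fell by 2.76 ± 0.13 (SE) on the log2 scale, with an adjusted p of 6.1e-10. MKI67, which encodes the proliferation marker Ki-67, stood at 30.0 and 29.3 CPM in P+I and 138 and 147 CPM in IN, a fall of 2.27 ± 0.09. Both P+I libraries lay below both IN libraries for either gene, although the P+I duplicates of CDK1 were spread more widely than those of MKI67. CCNB1, the cyclin partner of CDK1, went from 86.9 and 90.3 CPM to 28.4 and 29.8 CPM, a log2 fold change of -1.61 ± 0.07.

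The mitosis genes with the lowest values were KIF2C, NUF2, NEK2 and KIF20A. KIF2C, a kinesin that takes microtubules apart at kinetochores (chromosome 1, 44739818 to 44767767, hg38), had 2.77 and 3.15 CPM in P+I against 24.4 and 23.3 CPM in IN, a log2 fold change of -3.00 ± 0.13. NUF2, a part of the NDC80 complex at kinetochores, had 2.2 and 1.93 CPM against 15.7 and 17.1 CPM (-2.99 ± 0.16). NEK2, a kinase of the centrosome cycle, had 4.11 and 3.67 CPM against 28.8 and 29.2 CPM (-2.90 ± 0.14). Every P+I library was thus at a small part of the level of either IN library for these genes. KIF20A, a kinesin of the central spindle, fell by 2.80 ± 0.13, and its exons overlap those of BRD8 and CDC23 on the other strand.

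Genes that load and start the replication machinery fell as a group. GINS2, a subunit of the replicative helicase, was at 2.13 and 1.61 CPM in P+I and 10.9 and 12.2 CPM in IN, a log2 fold change of -2.63 ± 0.18, and GSE1 overlaps it on the other strand. CDC45, another part of that helicase, was at 1.21 and 1.29 CPM against 6.91 and 8.39 CPM (-2.61 ± 0.21). CDT1, which licenses origins, was at 5.6 and 4.76 CPM against 26.6 and 27.5 CPM (-2.39 ± 0.14). The primase gene PRIM1 fell by 2.60 ± 0.23 and shares exon sequence with HSD17B6 on the opposite strand, a gene that rose. In nucleotide synthesis 9 of 10 genes fell, among them TK1, thymidine kinase, by 2.25 and RRM2, a subunit of ribonucleotide reductase, by 1.75, while CTPS1 did not pass at 0.06. In repair, RAD51AP1, RAD54L and BLM changed by -2.65, -1.94 and -1.94, BRCA1 by -1.56 and FANCD2 by -1.50.

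Among 19 genes of the RB, E2F and DREAM machinery 11 fell, and the other 8 did not pass. E2F8, an E2F that represses transcription, went from 4.01 and 5.35 CPM to 0.425 and 0.515 CPM, a log2 fold change of -3.29 ± 0.32. MYBL2 and FOXM1, activators of mitotic genes, had log2 fold changes of -2.21 ± 0.09 and -1.97 ± 0.08. E2F1, the founding activator of the family, was at 8.15 and 7.85 CPM in P+I and 16.5 and 14.6 CPM in IN (-0.96 ± 0.11). RB1 itself was at 41.5 and 43.7 CPM against 47.2 and 49.9 CPM, with an adjusted p of 0.11 that does not pass.

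The CDKs and cyclins did not move as a block. Of 14 tested, 7 fell and 4 rose. CCND1, cyclin D1 and the partner of CDK4 and CDK6, rose from 675 and 693 CPM to 1474 and 1522 CPM, a log2 fold change of 1.13 ± 0.05. CCNE1, the partner of CDK2, rose from 17.5 and 16.9 CPM to 26.9 and 25.5 CPM (0.61 ± 0.09), whereas CCNE2 fell by 1.55 ± 0.37 at levels under 2.5 CPM and no longer passed when P+I replicate 2 was left out. The D cyclin CCND2 had 2 and 0 reads in the IN libraries and 2.06 and 2.19 CPM in P+I, which is at least 10.5-fold higher when 3 reads per library are taken as the floor. Between the targets of palbociclib, CDK4 was at 148 and 136 CPM against 141 and 135 CPM and did not pass (adjusted p = 0.61), and CDK6 rose by 0.27 ± 0.09, a call that was lost whenever an IN or P+I library was left out. CDK2 fell by 0.41 ± 0.09. CCNH, the cyclin of the kinase that activates other CDKs, was at 9.71 and 9.07 CPM against 9.33 and 10.4 CPM and did not pass (adjusted p = 0.65).

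CDKN1A, which encodes the CDK inhibitor p21, rose from 377 and 383 CPM in IN to 683 and 666 CPM in P+I, a log2 fold change of 0.83 ± 0.06. The other inhibitors that passed moved down. CDKN1B, encoding p27, went from 44.7 and 47.0 CPM to 24.7 and 25.2 CPM (-0.88 ± 0.08), CDKN2C, encoding p18, changed by -1.73 ± 0.12 and CDKN3, a phosphatase that acts on CDKs, by -1.81 ± 0.16. In all, 1 of 6 tested members of that list rose and 3 fell.

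Genes of the nuclear lamina and chromatin moved down with the cell cycle, 18 of 22 falling and 2 rising. LMNB1, lamin B1, was at 9.64 and 8.56 CPM in P+I against 36.5 and 36.2 CPM in IN, a log2 fold change of -2.00 ± 0.10 with an adjusted p of 1.3e-09. The lamin B receptor gene LBR fell by 1.20, the chromatin protein gene HMGB2 by 2.69 and the histone chaperone gene ASF1B by 2.50. The 2 that rose were LMNA, encoding lamins A and C, by 0.26 and HMGA2, a chromatin protein linked to senescence foci, by 0.29, and only 1 of the 2 passed whenever an IN or P+I library was left out.

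**Figure D2:**
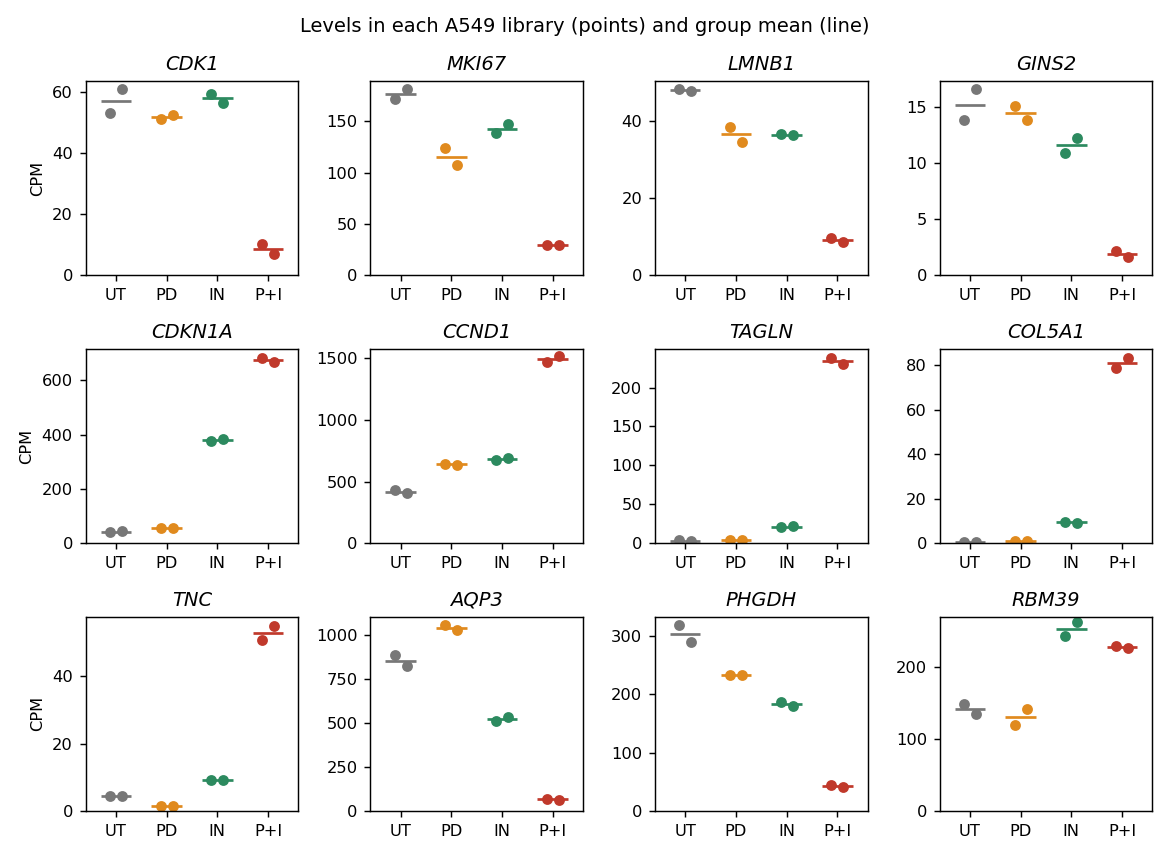
CPM of 12 genes in each of the 8 A549 libraries (points, 2 per group) with the group mean (line), for untreated (UT), palbociclib (PD), indisulam (IN) and both drugs (P+I). CDK1, MKI67, LMNB1 and GINS2 are lowest in the P+I libraries, TAGLN, COL5A1 and TNC are high there, and RBM39 lies at 227 to 263 CPM in IN and P+I.

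The promoters of the lowest replication and mitosis genes and of the 2 highest risers with at least 10 CPM in P+I are shown for the letters of the elements through which E2F and DREAM are known to act. Sequences are those of RefSeq for GRCh38.p14, read 5′ to 3′ on the strand of the gene, within 200 bases upstream of the start and cut back where GENCODE annotates an untranslated region. Capitals mark a CCAAT box (CCAAT), an E2F element (TTTCCCGC, TTTGGCGC, TTTCGCGC or TTTGCCGC) or a cell cycle homology region, CHR (TTTGAA or TTTAAA), on either strand, and no word of these sets contains another, although matches can overlap in a sequence. GINS2 and CDC45, the lowest of the replication list, were added after their values were seen.
KIF2C, chr1:44739637-44739817, plus strand: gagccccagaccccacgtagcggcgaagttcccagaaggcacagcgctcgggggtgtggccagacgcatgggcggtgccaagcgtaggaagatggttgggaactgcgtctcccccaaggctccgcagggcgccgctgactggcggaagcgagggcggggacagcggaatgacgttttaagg
NUF2, chr1:163321792-163321889, plus strand: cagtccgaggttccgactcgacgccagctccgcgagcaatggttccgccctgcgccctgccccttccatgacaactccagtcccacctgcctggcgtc
NEK2, chr1:211675631-211675821, minus strand: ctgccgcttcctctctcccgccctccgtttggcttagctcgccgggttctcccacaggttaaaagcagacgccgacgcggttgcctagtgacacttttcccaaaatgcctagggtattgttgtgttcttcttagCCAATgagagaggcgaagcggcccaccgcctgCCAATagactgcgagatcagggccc
KIF20A, chr5:138178954-138179111, plus strand: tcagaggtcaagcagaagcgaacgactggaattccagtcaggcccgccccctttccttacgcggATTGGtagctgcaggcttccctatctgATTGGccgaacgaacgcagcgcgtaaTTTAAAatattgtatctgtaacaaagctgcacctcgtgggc
GINS2, chr16:85688955-85689154, minus strand: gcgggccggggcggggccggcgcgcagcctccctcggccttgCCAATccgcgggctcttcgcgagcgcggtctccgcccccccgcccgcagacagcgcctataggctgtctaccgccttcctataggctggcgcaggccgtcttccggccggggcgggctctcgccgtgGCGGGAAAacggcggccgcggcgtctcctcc
CDC45, chr22:19479720-19479825, plus strand: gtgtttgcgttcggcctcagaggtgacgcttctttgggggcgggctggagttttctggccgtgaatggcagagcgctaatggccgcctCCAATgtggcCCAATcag
NECTIN3-AS1, chr3:111069960-111070070, minus strand: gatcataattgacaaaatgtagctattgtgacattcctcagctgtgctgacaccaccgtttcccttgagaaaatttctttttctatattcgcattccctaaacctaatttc
NFASC, chr1:204828452-204828651, plus strand: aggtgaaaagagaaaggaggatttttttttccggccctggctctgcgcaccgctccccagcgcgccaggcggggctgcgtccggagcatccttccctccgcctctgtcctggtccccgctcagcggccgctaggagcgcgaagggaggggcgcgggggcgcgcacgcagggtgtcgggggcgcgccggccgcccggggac

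KIF20A carries CCAAT boxes 94 and 67 bases and a CHR 41 bases upstream of its start, NEK2 CCAAT boxes at 66 and 34 bases, and GINS2 an E2F element at 31 bases. GINS2 also has a CCAAT box at 158 bases, and CDC45 has CCAAT boxes at 112 and 102 bases but no E2F element in the printed stretch. The printed stretches of KIF2C, NUF2, NECTIN3-AS1 and NFASC hold none of these words. Over the 300-base windows (250 bases before to 50 after a start), a CHR was found in 58 of 79 promoters of tested mitosis genes (73.4%), against 24.0% of all 35116 promoters. A CCAAT box was in 69.6% of the mitosis promoters and 34.6% of all. In the 47 promoters of DNA replication genes the E2F element was in 20 (42.6%), against 3.31% of all promoters, and the CHR in 6.38%. The 26 promoters of homologous recombination and Fanconi repair genes held the E2F element in 19.2%, the CHR in 19.2% and a CCAAT box in 38.5%. For the 16 promoters of nucleotide synthesis genes these shares were 18.8%, 37.5% and 43.8%. The 38 promoters of the collagen and matrix genes held a CHR in 26.3% and a CCAAT box in 26.3%. Over only the 250 bases before a start, the CHR was in 51.9% of the mitosis promoters and 21.9% of all. In the same bases the E2F element was in 29.8% of the DNA replication promoters and 2.79% of all. Genes with several starts enter with several promoters, and a match is a description of letters, not of a bound factor.

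Most genes of the matrix list rose. Of 37 tested genes of collagens and matrix 29 were higher in P+I, 20 of them by at least 2-fold, and 3 were lower, with a median log2 fold change of 1.06, against 22.0% of all genes called higher. The laminin genes LAMB3 and LAMA3 rose by 1.51 and 1.26. The fibrillar collagen gene COL5A1 went from 9.33 and 9.25 CPM to 79.0 and 83.3 CPM (3.13 ± 0.10), and the basement membrane collagen genes COL4A1 and COL4A2 rose by 1.86 and 1.53. LOX and LOXL2, which cross-link collagen, rose by 2.23 and 1.66. The 3 that fell were VCAN, FN1 and LAMB1, by 0.41, 0.27 and 0.14.

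Among 30 tested genes of epithelial and mesenchymal state 21 rose and 3 fell. The contractile genes TAGLN and MYL9 rose from 20.5 and 22.1 CPM to 238 and 230 CPM (3.46 ± 0.10) and from 6.57 and 7.73 CPM to 91.5 and 89.1 CPM (3.66 ± 0.11). The mesenchymal genes VIM, CDH2, SNAI2 and ZEB2 rose by 1.03, 0.44, 2.78 and 1.45. Epithelial genes went both ways, since CDH1, EPCAM and CLDN2 fell by 0.43, 0.81 and 1.02 whereas the keratin genes KRT7, KRT8, KRT18 and KRT19 and the claudin gene CLDN4 rose by 0.81, 0.41, 0.20, 0.91 and 1.59. TGFBI, a secreted matrix protein, went from a mean of 1540 CPM to 4176 CPM and FLNA, filamin A, from 1822 to 3385 CPM.

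Of 5 fibroblast markers COL1A1 and LUM rose. COL1A1 went from 20.5 and 19.6 CPM to 73.7 and 73.5 CPM, and LUM from 3 reads in each IN library to 137 and 127 reads, at least 44.1-fold. COL3A1, DCN and PDGFRB had at most 8 reads in any of the 4 libraries. The summed level of the 5 markers was 21.5 and 20.4 CPM in IN and 84.5 and 82.6 CPM in P+I. COL1A1 and LUM also belong to the collagen and matrix list and are among its 29 genes that rose. Any link between these markers and the rise of the other matrix genes was not tested.

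**Figure D3:**
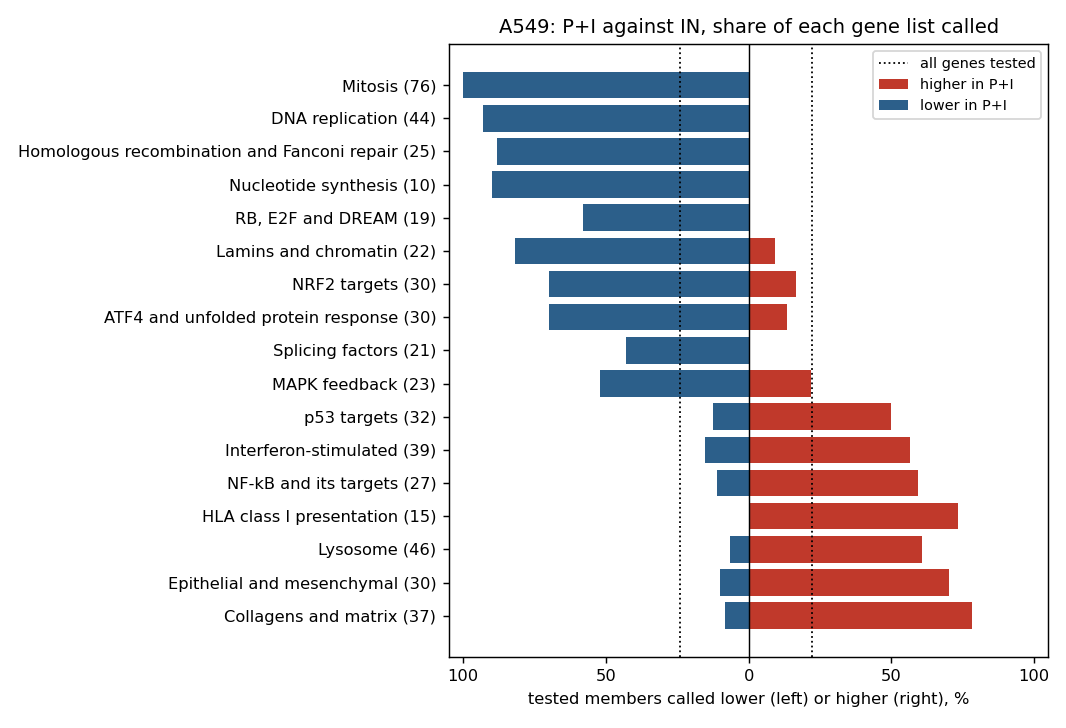
Share of the tested genes of each list (number in brackets) called lower (blue, left) or higher (red, right) in P+I than in IN at an adjusted p under 0.05, with dotted lines at the 23.9% and 22.0% of all genes tested. Mitosis reaches 100% lower, and collagens and matrix reach 78.4% higher.

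Published senescence lists were mostly higher in P+I. Of the genes tested, 26 of 41 rose and 5 fell in the Casella list, 21 of 34 rose and 4 fell in the Purcell list, 22 of 30 rose and 2 fell in the Hernandez senescence list, 16 of 21 rose and 1 fell in the Hernandez secretory list, and 42 of 71 rose and 6 fell in the Fridman list. Their median log2 fold changes were 0.54, 0.51, 0.48, 0.56 and 0.36. LINC02154, a long noncoding RNA of the Casella list, went from 3.32 and 3.96 CPM to 93.0 and 87.5 CPM (4.63 ± 0.13). IGFBP7, a secreted binding protein, went from 18.9 and 19.5 CPM to 76.4 and 67.8 CPM (1.91 ± 0.09), and CCN2, a matricellular protein gene also known as CTGF, from 17.6 and 15.5 CPM to 65 and 63 CPM (1.95 ± 0.09). GLB1, the lysosomal beta-galactosidase behind the senescence stain, rose from 153 and 145 CPM to 186 and 183 CPM, a log2 fold change of 0.31 ± 0.06.

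Several cytokine genes were raised beyond the indisulam level. Of 27 tested genes of NF-kB and its targets 16 rose and 3 fell. CCL2, a chemokine that draws monocytes, went from 7.74 and 6.54 CPM to 48.1 and 50.01 CPM (2.78 ± 0.11), and the cytokine gene IL32 from 2.00 and 2.05 CPM to 19.6 and 19.3 CPM (3.26 ± 0.17). IL6 and CXCL8, classical secreted cytokines of senescent cells, rose by 1.38 and 0.73. NFKBIA, REL and CXCL5 fell by 0.27, 0.48 and 0.54.

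In the interferon-stimulated list 22 of 39 rose and 6 fell. IFI27 went from 1.18 and 1.12 CPM to 11.1 and 11.5 CPM (3.28 ± 0.24), GBP1 from 9.19 and 8.46 CPM to 38.2 and 36.8 CPM (2.09 ± 0.10), and ISG15 rose by 1.57. The membrane restriction factors IFITM1, IFITM2 and IFITM3, whose sequences are close enough to share reads, fell by 2.62, 1.27 and 0.63. For antigen presentation, 11 of 15 genes of the HLA class I list rose, HLA-B from 29.8 and 28.3 CPM to 54.2 and 53.5 CPM (0.89 ± 0.09), but 7 passed when P+I replicate 2 was left out. HLA genes share sequence, so their single values are uncertain. HLA-DMB, an editor of class II peptide loading, moved the other way, from 24.7 and 23.0 CPM to 2.2 and 2.00 CPM (-3.50 ± 0.13).

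Of 32 p53 targets 16 rose and 4 fell, with a median log2 fold change of 0.24. TP53I3, an oxidoreductase gene, rose from 43.1 and 39.1 CPM to 118 and 109 CPM (1.46 ± 0.07), and FAS, a death receptor, from 37.2 and 39.6 CPM to 67.9 and 70.2 CPM (0.85 ± 0.09), and both overlap other genes on the opposite strand. MDM2, the p53 ubiquitin ligase, rose by 0.45. PMAIP1, encoding NOXA, and GDF15, a stress cytokine, fell by 0.65 and 0.62.

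Lysosomal genes rose by modest amounts, 28 of 46 higher and 3 lower, with a median of 0.28. NPC1, a lysosomal cholesterol transporter, went from 34.4 and 34.6 CPM to 80.6 and 82.6 CPM (1.24 ± 0.07), MAN2B1, a lysosomal mannosidase, from 28.4 and 27.0 CPM to 58.3 and 54.5 CPM (1.02 ± 0.09), and PSAP, the saposin precursor, from a mean of 2122 CPM to 3472 CPM. The membrane protein genes LAMP1 and LAMP2 rose by 0.63 and 0.41. CTSC, a cathepsin, went against the list, from 444 and 464 CPM to 200 and 202 CPM (-1.18 ± 0.05).

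Stress and antioxidant programmes were lower. Of 30 genes of ATF4 and the unfolded protein response 21 fell and 4 rose. PHGDH, which opens serine synthesis (chromosome 1, 119648411 to 119744218, hg38), was at 44.5 and 40.7 CPM in P+I against 186 and 180 CPM in IN (-2.10 ± 0.07), and PSAT1, the next enzyme of that pathway, at 106 and 103 CPM against 218 and 227 CPM (-1.09 ± 0.06). SHMT2 and MTHFD2 of mitochondrial one-carbon metabolism fell by 0.82 and 1.05, and XBP1 and ATF4, transcription factors of the 2 pathways, by 1.00 and 0.54. ATF3, a stress-induced transcription factor, rose from 18.2 and 18.1 CPM to 55.8 and 59.5 CPM (1.67 ± 0.09).

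NRF2 is the transcription factor of the antioxidant response, and A549 is known for high NRF2 activity. Of 30 of its targets 21 fell and 5 rose. The aldo-keto reductase gene AKR1B10 went from 3624 and 3680 CPM to 1554 and 1555 CPM (-1.23 ± 0.05), ALDH3A1, an aldehyde dehydrogenase, from 4490 and 4348 CPM to 2215 and 2148 CPM (-1.02 ± 0.07), and NQO1, a quinone reductase, fell by 0.66. The pentose phosphate genes PGD and TKT fell by 0.77 and 0.61. Those that rose included HMOX1, haem oxygenase, by 0.66 and the ferritin genes FTH1 and FTL by 0.46 and 0.19.

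Of 23 genes of MAPK feedback 12 fell and 5 rose. ETV4, an ETS factor induced by ERK, went from 134 and 126 CPM to 36.5 and 35.4 CPM (-1.85 ± 0.07), and DUSP6 and SPRY4, inhibitors of the pathway, fell by 0.36 and 0.39. HBEGF, an EGF receptor ligand, went from 4.29 and 4.36 CPM to 15.0 and 15.5 CPM (1.82 ± 0.14). Of 15 tested BCL2 family genes 7 rose and 2 fell, and 4 were called higher without P+I replicate 1. BCL2L1, encoding BCL-xL, rose from 316 and 324 CPM to 378 and 367 CPM (0.22 ± 0.05), BCL2L2, encoding BCL-W, fell by 0.28 ± 0.08, a call lost without IN replicate 1 or P+I replicate 2, and BCL2, at under 1 CPM in all 4 libraries, did not pass (adjusted p = 0.62). Those 3 proteins are the targets of navitoclax, a drug that kills senescent cells. Other members of the BCL2 family changed more, and 3 rose by at least 2-fold. HRK had 10 and 7 reads in IN and 30 and 40 in P+I (2.02 ± 0.41), and BOK rose by 1.16 ± 0.13.

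RBM39, whose protein indisulam removes, was at 229 and 227 CPM in P+I and at 244 and 263 CPM in IN, with an adjusted p of 0.11 that does not pass. In UT and PD it stood lower, at 150 and 135 and at 120 and 142 CPM. DCAF15 was at 13.5 and 12 CPM against 12.4 and 11.1 CPM (adjusted p = 0.52). Of 21 splicing factor genes 9 fell and the other 12 did not pass. SRSF1, SRSF3, SRSF2 and SRSF7, members of the serine and arginine rich family, fell by 0.78, 0.76, 0.74 and 0.69. Of 24 genes of cholesterol synthesis 10 rose and 4 fell, but between 3 and 6 were called higher without IN replicate 1, IN replicate 2 or P+I replicate 1. Among 15 complement genes 5 rose and 5 fell, 33.3% each way, against 22.0% of all genes higher and 23.9% lower. CD59, a complement inhibitor of the cell surface, went from 150 and 154 CPM to 386 and 378 CPM (1.33 ± 0.06).

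The strongest risers among genes with at least 10 CPM in P+I were NECTIN3-AS1, NFASC, HSD17B6, AMTN and LINC02154. NECTIN3-AS1, a noncoding RNA (chromosome 3, 110888384 to 111071553, hg38), had 0.968 and 1.06 CPM in IN and 31.6 and 30.2 CPM in P+I, 30.2-fold higher (4.92 ± 0.18). NFASC, the adhesion molecule neurofascin, went from 0.760 and 0.661 CPM to 18.9 and 18.3 CPM (4.70 ± 0.22). HSD17B6, a steroid dehydrogenase gene that shares exon sequence with PRIM1 on the other strand, went from 0.829 and 1.52 CPM to 31.6 and 29.9 CPM (4.69 ± 0.27). NECTIN3-AS1, NFASC and HSD17B6 stayed below 2 CPM in both IN libraries. The list went on with AMTN, TIMP3, an inhibitor of matrix proteases, CPA4, a carboxypeptidase, MARCHF4, MAF, a transcription factor, and CLSTN2, with log2 fold changes of 4.66, 4.36, 4.17, 3.91, 3.90 and 3.75. MUC3A rose by 4.29, and as a mucin of a repetitive gene family its count is uncertain.

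By the same 10 CPM minimum in the higher group, the lowest values outside the mitosis list belonged to GPRC6A, HLA-DMB, PCLAF, PIMREG, FAM111B, TROAP, AQP3 and GTSE1. GPRC6A, a receptor for amino acids, had 31.4 and 28.4 CPM in IN and 2.34 and 2.00 CPM in P+I (-3.79 ± 0.20). AQP3, a channel for water and glycerol (chromosome 9, 33441156 to 33447596, hg38), went from 512 and 531 CPM to 69.0 and 64.3 CPM (-2.97 ± 0.06). PCLAF, a factor bound to the replication clamp, fell by 3.14, and TROAP and GTSE1, both with roles at the spindle, by 2.98 and 2.82.

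Some tested genes were at or below 3 reads in both IN libraries. Of 115 such genes 89 were called higher, 51 of them with at least 1 CPM in P+I, against 22.0% of all genes tested. These 115 were in the test because of their P+I reads or their reads in other A549 groups. Their share called higher therefore follows in large part from how they were chosen. The 115 included IVL and SPRR1A, precursors of the cornified envelope of skin. IVL had 0 and 1 reads in IN and 62 and 74 in P+I, and SPRR1A 3 and 3 in IN and 61 and 54 in P+I. LCE3D, another gene of that envelope, had no read in IN and 72 and 57 in P+I. WNT7A and FGF1, secreted ligands, had at most 2 reads in an IN library and 46 and 63 and 43 and 37 in P+I. Of the 73 tested genes at or below 3 reads in both P+I libraries, a set also chosen by its reads, 21 were called lower, against 23.9% of all genes.

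Without indisulam, palbociclib changed fewer genes, 1310 higher in PD than in UT (8.3%) and 1168 lower (7.4%), with a median size of change of 0.18 on the log2 scale against 0.32 with indisulam. These counts fell to 543 and 406 when only the PD and UT libraries entered the model, to 816 and 656 without PD replicate 1 and to 779 and 522 without PD replicate 2. The comparison with indisulam and the comparison without it share no library. Duplicates of PD and UT were spread more widely (chi-square per degree of freedom of 5.04 and 9.57) than those of P+I and IN (2.22 and 3.08). The 2 sets of counts are thus not measured with equal precision, and the interaction uses the same PD and UT libraries. Across genes, which are not independent, their log2 fold changes had a Pearson correlation of 0.30 and a Spearman correlation of 0.29 over 15780 genes. Of the 1310 genes higher without indisulam, 667 were also higher with it, 293 were lower and 350 did not pass. Of the 1168 genes lower without indisulam, 671 were also lower with it and 100 were higher.

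The difference between the effects of palbociclib with and without indisulam was tested as an interaction. It passed for 3977 genes (25.2%), with 1696 genes more positive with indisulam (10.7%) and 2281 more negative (14.5%). DESeq2 called 1237 more positive and 1494 more negative. All 76 mitosis genes and 41 of 44 replication genes had an interaction that passed below 0. The medians of these lists were -1.95 and -1.37 on the log2 scale. In the collagen and matrix list 19 of 37 genes passed above 0 and 1 below, and in the lysosome list 26 of 46 passed above and 4 below.

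**Figure D4:**
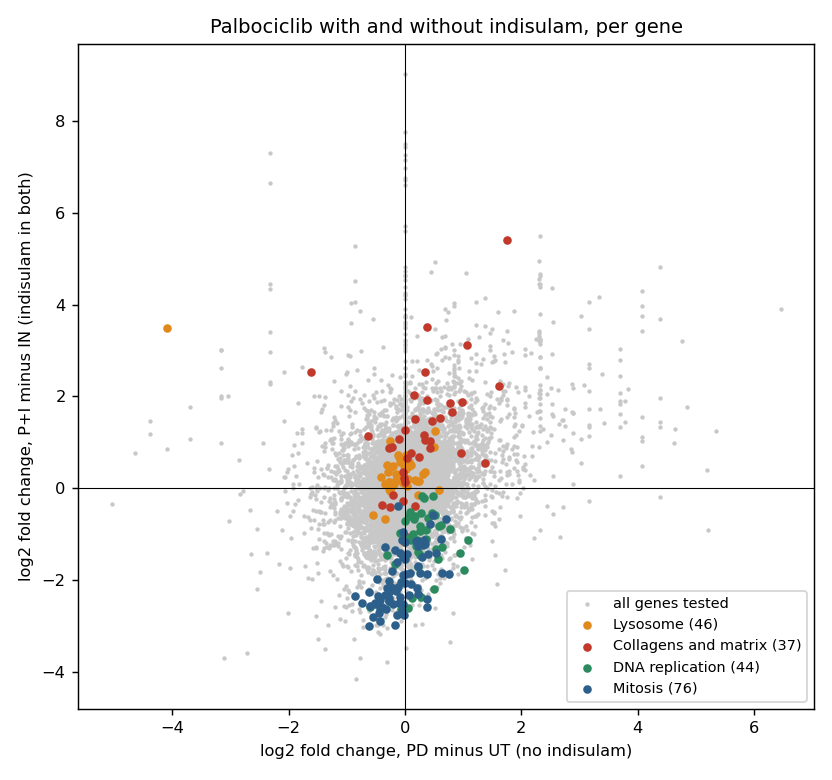
Log2 fold change of palbociclib with indisulam (P+I minus IN, vertical axis) against that without indisulam (PD minus UT, horizontal axis), 1 point per gene tested, with 4 lists coloured. Mitosis and DNA replication genes lie below 0 on the vertical axis and on both sides of 0 on the horizontal axis, and most collagen and matrix genes lie above 0 on the vertical axis. The lysosome gene far to the left is CD68, at under 1 CPM in every library.

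For DNA replication the sign differed between the 2 settings. Without indisulam 21 of the 44 genes rose and 1 fell, with a median of 0.26, whereas with indisulam 41 fell. The 21 became 10 with only the PD and UT libraries in the model and 13 without PD replicate 1. For mitosis 11 of 76 rose and 19 fell without indisulam. The counts of both lists without indisulam stand against 8.3% of all genes called higher and 7.4% called lower. E2F1 was at 22.9 and 24.6 CPM in PD against 14.2 and 14.3 CPM in UT, a rise of 0.74, and its interaction was -1.69 ± 0.15. CDK1 was at 51.4 and 52.5 CPM in PD against 53.1 and 60.9 CPM in UT, where it did not pass, and its interaction was -2.63 ± 0.17. LMNB1 and MKI67 already fell without indisulam, by 0.40 and 0.62, and fell further with it, with interactions of -1.60 and -1.65.

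TAGLN did not pass without indisulam, at 4.6 and 4.39 CPM in PD against 4.08 and 2.2 CPM in UT, and its interaction of 2.94 did. COL5A1 did not pass either, at 1.04 and 1.1 CPM in PD against 0.68 and 0.333 CPM in UT, and its interaction of 2.05 did. CCND1 and CDKN1A rose in both settings and more with indisulam, with interactions of 0.51 ± 0.07 and 0.41 ± 0.09. For secreted factors the picture was mixed. In the Hernandez secretory list 14 of 21 genes rose without indisulam, against 8.3% of all genes, and 16 rose with it, against 22.0%. The interaction passed above 0 for 5 and below 0 for 4, against 10.7% and 14.5% of all genes. CCL2 rose by 1.54 without and by 2.78 with indisulam, with an interaction of 1.24 ± 0.34 that passed (adjusted p = 0.015). IL6 rose by 2.00 without and by 1.38 with indisulam, and its interaction of -0.62 ± 0.40 did not pass (adjusted p = 0.30), so a difference between the settings was not shown. The chemokine gene CXCL6 and the interferon-stimulated gene GBP1 likewise had interactions that did not pass, at -0.15 ± 0.41 and 0.60 ± 0.22. In the list of NF-kB and its targets the median log2 fold change was 0.38 without indisulam and 0.37 with it. In the interferon-stimulated list it was 0.48 without and 0.44 with indisulam. The interaction passed above 0 for 5 and below 0 for 5 of 27 genes in the first list, and for 9 and 5 of 39 in the second.

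Among the genes with the lowest interactions, CFTR, a chloride channel, rose from 3.33 and 3.80 CPM in UT to 10.2 and 11 CPM in PD, but went from 23.8 and 22.5 CPM in IN to 5.32 and 5.6 CPM in P+I, an interaction of -3.66 ± 0.19. Other genes overlap CFTR on the opposite strand. NKD1, an inhibitor of WNT signalling, rose by 1.55 without indisulam and fell by 1.46 with it. Among the highest, LINC02154, NECTIN3-AS1 and NFASC were below 1 CPM in all UT and PD libraries, and their interactions were 4.63 ± 1.52, 4.41 ± 0.67 and 4.26 ± 0.74. LINC02154 lay below the floor of 3 reads in all 4 of those libraries, so its interaction depends on how the model treats near-zero counts and is no bound.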

How the data were processed

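The authors deposited whole-number read counts per gene for each library, made from hg38 alignments, and the submitters' processing notes name HISAT2 2.2.1 and HTSeq. Whether strand was used in counting is not given in the sources used here, so overlaps on the other strand are named. Only the 60683 Ensembl rows were used, and 9 summary lines were left out. Symbols and coordinates came from GENCODE release 44.

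Counts were scaled by library total and tested with edgeR 4.0.16 (glmQLFit, glmQLFTest, filterByExpr) over all 10 A549 libraries, PF included, with Benjamini-Hochberg adjustment over 15780 genes. SE is the fold change divided by the root of F. On simulated data for P+I against IN, 200 of 15282 genes were changed, and all genes had the same spread. There 70.1% of 1.5-fold and 82.1% of 2-fold changes were recovered. In the data the spread differs between genes and many more genes passed, so recovery may differ. DESeq2 1.42.0, TMM factors, other filters, fewer groups, a replicate block and leaving out each UT, PD, IN and P+I library in turn were alternatives. Reads carry no molecular identifiers, so read floors cover counting error only.

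Members and lists were chosen with earlier results of these data known. Named genes were the fixed cell-cycle, senescence and BCL2 genes, up to 4 largest changes per list, the 12 highest and lowest changes with at least 10 CPM, the 6 highest and lowest interactions and the 4 largest opposite changes, and further list members are given by value. SOD2, MTCYB and 2 names of the Purcell list were not matched to an identifier. Some genes that meet this rule are not reported here.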

Additional observations from a re-analysis of the deposited data

Results flagged for a closer look

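The effect of palbociclib with indisulam differed from its effect without indisulam by the interaction test for 1696 genes that were more positive and 2281 genes that were more negative with indisulam, which is why these results are listed here. Among genes with at least 10 CPM in a group, 85 rose with indisulam and fell without it, and 264 fell with indisulam and rose without it, each passing in both comparisons and in the interaction.

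In the first set, ITGA11, the alpha 11 integrin subunit, was at 5.64 and 5.47 CPM in UT, 3.71 and 3.84 in PD, 6.77 and 7.86 in IN and 93.0 and 95.0 in P+I, an interaction of 4.23 on the log2 scale. TNC, the matrix protein tenascin C, was at 4.49 and 4.33 CPM in UT, 1.56 and 1.34 in PD, 9.05 and 9.32 in IN and 50.8 and 55.1 in P+I, an interaction of 4.14. MCAM, an adhesion molecule, and ATF3 had interactions of 2.28 and 2.19.

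In the second set, AQP3 was at 884 and 822 CPM in UT, 1053 and 1028 in PD, 512 and 531 in IN and 69.0 and 64.3 in P+I, an interaction of -3.26. SGO1, which protects sister chromatid cohesion, was at 8.84 and 10.0 CPM in UT, 12.3 in both PD libraries, 9.95 and 11 in IN and 1.70 and 1.74 in P+I, an interaction of -2.98. ASPM, a spindle pole protein, and ARHGAP11A had interactions of -2.80 and -2.49.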

How the results depend on the processing

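The counts of genes higher and lower in P+I than in IN stayed within 1.5 times of 3479 and 3773 under every alternative, from 2672 to 4015 and from 2665 to 4280 when a library was left out and at 2801 and 2523 with DESeq2, and no gene called in both was called in the opposite direction. Of the list counts for P+I against IN under the alternatives, 718 stayed within 1.5 times and 38 did not, against 681 and 129 for PD against UT and 765 and 45 for the interaction. The interaction counts ran from 1156 to 2141 higher and from 1615 to 2843 lower without a library, and DESeq2 gave 1494 lower. For PD against UT, only the compared groups gave 543 higher and 406 lower and DESeq2 617 lower, and leaving out a library gave 779 to 1729 higher and 522 to 1602 lower, the lowest without PD replicate 1 (816 and 656) or PD replicate 2 (779 and 522). The cause was not tested. Leaving out a library moved CDK4 between -0.024 (without P+I replicate 1) and 0.105, CCNH between -0.145 and 0.008 (without IN replicate 2) and BCL2 between -1.575 and 0.035 (without P+I replicate 1), none of them passing. A replicate block left 3437 genes called higher and 3698 called lower in P+I, and BIK lost its call. Deviations of same-numbered libraries correlated at 0.37 for IN and UT, 0.031 for P+I and IN, -0.031 for P+I and PD and -0.37 for PD and UT, so the numbers were not taken to pair the libraries. A block with the PD numbers crossed, chosen after seeing the data, gave 1556 and 1467 genes for PD against UT and 1927 and 2565 for the interaction. With 2 libraries per group, genes under about 1 CPM carry few reads and their fold changes have wide errors.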
